A study of Homo sapiens with 12 samples.

Results

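The mRNA levels of 10 genes of lactate export and pyruvate dehydrogenase control were described in 2 human hepatocellular carcinoma (HCC) cell lines in which EGR1 had been altered. The genes were taken by name from an RNA-seq table of 22963 genes: the lactate dehydrogenase subunits LDHA and LDHB, the lactate transporters SLC16A1 and SLC16A3 with their partner BSG, the pyruvate dehydrogenase kinases PDK1, PDK2, PDK3 and PDK4, and PDHA1, a subunit of the enzyme that these kinases switch off. All 10 were found in the table. The unit was FPKM, a fragment count divided by transcript length and library size. Comparisons between genes and between libraries remain approximate, since results below moved with GC content and with the scaling of libraries.

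The study asked how EGR1, a zinc finger transcription factor, bears on HCC growth and glycolysis. PLC/PRF5 cells carried either an empty lentiviral vector or the same vector with the EGR1 coding sequence behind a CMV promoter, and MHCC97H cells were either parental (labelled WT) or labelled EGR1 knockout, with 3 libraries in each of the 4 groups and all cells grown in DMEM with fetal bovine serum. The knockout cells were made with CRISPR/Cas9 as single clones, and which clone was sequenced was not given in the sources used here. Parental cells were not described as carrying a vector or a guide, and their sample descriptions name them Mock without saying what that means. The edit, the clone and the lentivirus therefore cannot be told apart in MHCC97H. The labels number the libraries as biological replicates without saying whether they came from separate cultures, so p-values measure the spread between these libraries.

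Pyruvate, the end product of glycolysis, has a pair of main fates. Lactate dehydrogenase, a tetramer of LDHA and LDHB subunits, reduces it to lactate in the cytosol, and the monocarboxylate transporters MCT1 (SLC16A1) and MCT4 (SLC16A3), both brought to the plasma membrane by basigin (BSG), carry lactate with a proton across the membrane. Pyruvate that enters the mitochondrion is turned into acetyl-CoA by the pyruvate dehydrogenase complex, whose E1 alpha subunit PDHA1 is phosphorylated and thereby inhibited by the kinases PDK1 to PDK4. LDHA, SLC16A3 and PDK1 are known targets of hypoxia-inducible factor, and PDK4 is known to rise in fasting under PPAR and FOXO1 control.

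Promoter sequence is shown for 3 members, since EGR1 and hypoxia-inducible factor act through short DNA letters and since LDHB was nearly silent in one cell line. The 250 bases before a RefSeq start site are given 5′ to 3′ in the direction of the gene, from RefSeq on GRCh38.p14. For LDHA (chr11:18394313-18394562, plus strand) capitals mark ACGTG, the core of a hypoxia response element, on either strand. For PDHA1 (chrX:19343677-19343926, plus strand) capitals mark GCGGGGGCG, a form of the EGR1 site. For LDHB (chr12:21657843-21658092, minus strand) capitals mark CG pairs.
LDHA: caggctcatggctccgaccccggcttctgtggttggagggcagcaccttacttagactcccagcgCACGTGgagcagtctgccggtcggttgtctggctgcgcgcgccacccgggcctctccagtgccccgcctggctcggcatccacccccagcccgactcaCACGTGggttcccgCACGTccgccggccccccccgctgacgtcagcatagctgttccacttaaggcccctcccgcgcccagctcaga
PDHA1: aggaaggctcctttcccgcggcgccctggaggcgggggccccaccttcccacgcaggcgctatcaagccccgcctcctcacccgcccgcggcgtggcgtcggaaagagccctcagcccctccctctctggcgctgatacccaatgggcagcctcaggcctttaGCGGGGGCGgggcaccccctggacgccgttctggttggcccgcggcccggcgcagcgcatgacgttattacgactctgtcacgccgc
LDHB: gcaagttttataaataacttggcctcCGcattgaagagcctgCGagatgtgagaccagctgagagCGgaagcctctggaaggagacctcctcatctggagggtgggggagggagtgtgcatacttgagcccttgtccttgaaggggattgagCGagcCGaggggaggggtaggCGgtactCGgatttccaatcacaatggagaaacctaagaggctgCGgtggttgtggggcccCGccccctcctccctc

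Promoter windows of 300 bases (250 before and 50 after a start) were held for 9 of the 10 members, in 18 windows. GCGTGGGCG or GCGGGGGCG, searched on both strands, stood in 1 of these 18 windows, that of PDHA1, against 5.77% of all 35116 windows. ACGTG stood in 6 of the 18 windows, 1 each of LDHA, SLC16A3, BSG, PDK1, PDK2 and PDK3, against 21.4% of all windows. The LDHA window shown held 5 matches, because each of its 2 E-boxes (CACGTG, in 7.26% of all windows) holds ACGTG on both strands. The LDHB sequence held 9 CG pairs, against a median of 11 over all windows in the same 250 bases. A match of letters is a description and not a binding site.

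EGR1 itself was measured first. Its FPKM was 1.97, 1.43 and 2.03 in the vector libraries and 56.3, 50.2 and 52.2 in the EGR1 libraries of PLC/PRF5, a log2 difference of 4.27 (SE 0.11, limma adjusted p = 1.58e-07). In MHCC97H it was 20.2, 23.1 and 21.2 in the parental libraries and 35.2, 50.3 and 32.9 in the libraries labelled knockout. The mRNA was thus higher, not lower, in all 3 libraries labelled knockout (log2 difference 0.83, SE 0.15, limma adjusted p = 0.00126, and 0.42 with limma adjusted p = 0.0622 after the GC correction described below). Every MHCC97H direction below is therefore that of the libraries labelled knockout, and EGR1 protein and the edited bases were not analysed here. The paper reports that its knockout clones were checked by western blot and DNA sequencing. The mRNA level shows neither the protein nor the edit.

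The libraries of a group resembled one another, with r across genes between 0.993 and 0.997, and their FPKM summed to between 376335 and 437652. Depth is unknown from these files. Of 10 hepatocyte markers, 9 had a mean FPKM of at least 1 in the PLC/PRF5 vector libraries but 5 in the parental MHCC97H libraries, where ALB (0.885) and SERPINA1 (0.212) were nearly absent. The hepatocyte markers summed to between 3921 and 4195 FPKM in vector and 4732 and 5976 in EGR1 libraries, and to between 1464 and 1849 in parental libraries and 2245 and 2679.6 in those labelled knockout. In MHCC97H nearly all of the sum was the keratins KRT8 (mean 1102 and 1775 FPKM) and KRT18 (517 and 635 FPKM), and the list did not move as one: ALB was at 0.885 and 15.2 FPKM, HNF4A at 9.64 and 7.91 FPKM and APOB at 1.27 and 0.15 FPKM. Of 9 leukocyte, endothelial and fibroblast markers, CD68 and PECAM1 alone reached a mean FPKM of 1 in any group. The list summed to 57.1 to 62.7 FPKM in the libraries labelled knockout against 31.6 to 34.8 in the parental ones. Nearly all of this sum was CD68 (mean 53.8 against 28.5 FPKM) and PECAM1 (5.99 against 5.1 FPKM), so the list did not rise as a whole. The part of these markers in the results was not tested.

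GC content moved with both comparisons and is given beside the results. Across the genes tested, Spearman's rho between the GC content of a gene's longest transcript and its log2 change was 0.753 in MHCC97H and -0.437 in PLC/PRF5, and a smooth curve on GC content and length took up 52.4% and 17.9% of the variance of the changes. The members ranged from 39.4% GC (PDK4) to 62.7% (SLC16A3), so the changes within each line are also given after that curve was subtracted (GC corrected). Whether the trend is technical was not tested.

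The clearest contrast among the lactate genes lay between the cell lines. LDHB (chr12:21635342-21757857, minus strand), the subunit that favours the oxidation of lactate, was at 0.183, 0.107 and 0.125 FPKM in PLC/PRF5 vector libraries and at 651, 625 and 613 FPKM in MHCC97H parental libraries. SLC16A3 (chr17:82228397-82261129, plus strand), which encodes MCT4, was at 0.275, 0.328 and 0.198 FPKM in the former and 46.1, 51.8 and 52.6 FPKM in the latter. Both genes were thus nearly silent in PLC/PRF5, with no overlap between the lines. The differences on the log2(FPKM + 1) scale, parental minus vector, were 9.11 for LDHB and 5.34 for SLC16A3. Both passed the filter on low values only through the MHCC97H libraries, so these differences are a description. The cell line and the vector cannot be told apart here.

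Of the other 8 members, 7 differed between the control groups of the lines, 1 higher and 6 lower in MHCC97H, against 76.7% of the genes whose mean FPKM reached 1 in both groups. Among all 12046 genes tested 79.8% differed, 38.8% higher and 40.9% lower, and the groups did not overlap for 81.0%. SLC16A1 was the one that was higher in MHCC97H (0.80, SE 0.09, limma adjusted p = 4.77e-05). The members of the mitochondrial side were lower there: PDHA1 by -2.29 (SE 0.08), PDK2 by -1.73 (SE 0.10), PDK4 by -1.71 (SE 0.10) and PDK3 by -1.21 (SE 0.10), with limma adjusted p of at most 6.82e-06. BSG was lower by -1.71 (SE 0.09) and LDHA by -0.63 (SE 0.07, limma adjusted p = 4.5e-05). PDK1 did not pass the test (-0.15, SE 0.12, limma adjusted p = 0.29), but did after GC correction (-0.76, limma adjusted p = 3.5e-05), when all 8 passed against 80.9% of all 11385 genes tested. Unlike the 76.7%, that share was not limited to genes whose mean FPKM reached 1 in both groups.

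In every PLC/PRF5 library LDHA made up nearly all of the lactate dehydrogenase mRNA, and in MHCC97H LDHB was the larger share. LDHB was 0.0222% ± 0.00563 (SD, n = 3) of the summed LDHA and LDHB FPKM in vector libraries and 61.3% ± 0.556 (SD, n = 3) in parental libraries. The order of the 10 genes by FPKM showed the same contrast: LDHA led and LDHB came last in the vector libraries, and LDHB led in both MHCC97H groups. LDHA has 6 and LDHB 3 annotated pseudogenes, none of them in the table, and whether reads were shared with them was not tested.

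With EGR1 overexpression in PLC/PRF5, LDHA and PDK2 fell and PDK4 rose. LDHB and SLC16A3 had a mean FPKM under 1 and were left out of this test, so 8 of the 10 members were tested and 3 passed, 1 higher and 2 lower. Among all 11671 genes tested 29.6% passed, 19.2% higher and 10.4% lower. After GC correction 5 members passed, 1 higher (PDK4) and 4 lower (LDHA, BSG, PDK1 and PDK2), against 33.7% of the genes tested, 16.4% higher and 17.3% lower. The median change of the 8 members was -0.22 against 0.09 over all genes tested. As deposited, 64.8% of all calls were higher, a share that came to between 46.0% and 48.6% with quantile normalization, median scaling or GC correction.

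LDHA (chr11:18394388-18408425, plus strand), the subunit that favours the reduction of pyruvate to lactate, was at 645, 619.7 and 592 FPKM in the vector libraries and at 367, 403 and 391 FPKM in the EGR1 libraries. Every EGR1 library was below every vector library. The log2 difference was -0.68 (SE 0.10, limma adjusted p = 0.00194), and -0.76 after GC correction (limma adjusted p = 0.00036). It passed the test in all 17 alternatives tried, at between -0.80 and -0.59.

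LDHB, at the floor of the table in these cells, was at 0.332, 0.462 and 0.273 FPKM with EGR1, each above the 3 vector libraries. With genes of any FPKM above 0 admitted, its log2 difference was 0.25 (SE 0.06, limma adjusted p = 0.039). LDHB then made up 0.0916% ± 0.0224 (SD, n = 3) of the pair. The log2 ratio of LDHA to LDHB went from 12.16 ± 0.36 (SD, n = 3) to 10.12 ± 0.36 (SD, n = 3), without overlap, with an exact permutation p of 0.1, the smallest that 3 against 3 libraries allow. LDHA thus accounted for nearly all of the pair in both groups.

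Of the transporters, SLC16A1 did not pass the test in PLC/PRF5, and SLC16A3 was left out of it for its low level. SLC16A1 (chr1:112911847-112957013, minus strand) was at 14.8, 15.6 and 15.1 FPKM with vector and at 18.0 FPKM in each EGR1 library. The groups did not overlap, as for 47.7% of all genes tested, and the log2 difference of 0.23 missed the threshold (SE 0.08, limma adjusted p = 0.0548) and was 0.10 after GC correction. SLC16A1 passed in 3 of 17 alternatives, among them the fit that admitted any FPKM above 0 (0.23, limma adjusted p = 0.0363). SLC16A3 stayed at 0.267, 0.259 and 0.253 FPKM, within the range of the vector libraries.

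BSG (chr19:571277-583493, plus strand), the chaperone of both transporters, was at 509, 506 and 480.3 FPKM with vector and at 395, 405 and 434 FPKM with EGR1. All EGR1 libraries were lower, but the log2 difference of -0.28 missed the threshold (SE 0.10, limma adjusted p = 0.0546). BSG passed in 7 of 17 alternatives, among them GC correction (-0.19, limma adjusted p = 0.0448) and libraries scaled to the same total (-0.31, limma adjusted p = 0.0191). BSG exceeded the summed transporters by a log2 ratio of 5.01 ± 0.06 (SD, n = 3) with vector and 4.49 ± 0.07 (SD, n = 3) with EGR1 (exact permutation p = 0.1).

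Among the kinases, PDK4 (chr7:95583499-95596491, minus strand) rose from 11.2, 13.1 and 11.3 FPKM to 18.8, 16.5 and 17.1 FPKM, without overlap. Its log2 difference was 0.52 (SE 0.10, limma adjusted p = 0.0053) and 0.27 after GC correction (limma adjusted p = 0.0238). With GC content and length taken as the median over transcripts it was 0.17 and no longer passed (limma adjusted p = 0.173).

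PDK2 (chr17:50094737-50112152, plus strand) fell from 9.58, 8.80 and 9.49 FPKM to 7.45, 7.43 and 7.32 FPKM, and the groups did not overlap. The log2 difference of -0.29 (SE 0.09, limma adjusted p = 0.0325) held after GC correction (-0.25, limma adjusted p = 0.023). This call was the least stable: leaving out vector replicate 1 or 3, or EGR1 replicate 1, 2 or 3, gave limma adjusted p of 0.0789, 0.101, 0.0557, 0.104 and 0.109 at changes between -0.30 and -0.27.

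PDK1 (chr2:172555373-172608669, plus strand) was at 3.62, 4.94 and 4.56 FPKM with vector and at 3.35, 3.22 and 3.73 FPKM with EGR1, and the groups overlapped. Its log2 difference was -0.27 (SE 0.12, limma adjusted p = 0.117), and -0.69 after GC correction (limma adjusted p = 0.0015). The longest PDK1 transcript used in that correction has 14193 bases, and with the median over transcripts the change was -0.47 (limma adjusted p = 0.00492). Without GC correction PDK1 passed with quantile normalization (-0.44, limma adjusted p = 0.0145) and with median scaling (-0.35, limma adjusted p = 0.0452). In all, PDK1 passed in 6 of 17 alternatives. PDK3 (chrX:24465221-24541862, plus strand) overlapped between the groups at 4.24 to 6.06 FPKM and had a log2 difference of -0.16 (SE 0.12, limma adjusted p = 0.34), or -0.30 after GC correction (limma adjusted p = 0.0532).

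The summed kinase mRNA was 31.1 ± 1.6 FPKM (SD, n = 3) with vector and 33.2 ± 1.9 FPKM (SD, n = 3) with EGR1, and the groups overlapped (exact permutation p = 0.3). Its composition moved towards PDK4, which made up 38.2% ± 2.25 (SD, n = 3) with vector and 52.7% ± 0.583 (SD, n = 3) with EGR1. PDK2 made up 30.0% and then 22.4%, PDK3 17.8% and then 14.6%, and PDK1 14.0% and then 10.4%. None of the 4 shares overlapped between the groups, each with an exact permutation p of 0.1. The shares are of FPKM as deposited, with no GC correction.

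PDHA1 (chrX:19343893-19361705, plus strand) was at 51.0, 54.7 and 50.2 FPKM with vector and at 53.4, 61.0 and 63.0 FPKM with EGR1. The ranges overlapped and the log2 difference of 0.18 did not pass (SE 0.09, limma adjusted p = 0.162), nor did 0.14 after GC correction (limma adjusted p = 0.165). Relative to PDHB, the other subunit of the E1 enzyme, the log2 ratio was 0.30 ± 0.12 (SD, n = 3) and then 0.65 ± 0.05 (SD, n = 3), without overlap (exact permutation p = 0.1). The log2 ratio of LDHA to PDHA1 went from 3.57 ± 0.08 (SD, n = 3) to 2.71 ± 0.07 (SD, n = 3), also without overlap (exact permutation p = 0.1). Relative to DLAT, another subunit of the complex, PDHA1 did not shift. That log2 ratio was 0.78 ± 0.08 (SD, n = 3) and 0.75 ± 0.15 (SD, n = 3), with overlap (exact permutation p = 0.8).

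In MHCC97H, 8 of the 10 members differed in the libraries labelled knockout, 4 higher (PDK2, SLC16A3, BSG and PDHA1) and 4 lower (SLC16A1, PDK1, LDHA and PDK4). Among all 11577 genes tested 66.3% differed, 34.8% higher and 31.5% lower. After GC correction 4 members passed, PDK2, PDHA1 and SLC16A3 higher and SLC16A1 lower, against 47.5% of the genes tested, 24.4% higher and 23.1% lower. The median change of the members was -0.06, against 0.02 over all genes tested. Scaling each library to the same total moved the median of all genes to -0.11 and the share of calls that were higher from 52.5% to 41.6%.

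The lactate transporters moved apart. SLC16A1 was at 30.1, 27.3 and 24.8 FPKM in parental libraries and at 16.6, 16.8 and 15.2 FPKM in those labelled knockout. SLC16A3 was at 46.1, 51.8 and 52.6 FPKM and at 104, 85.5 and 104 FPKM. Neither gene's groups overlapped, as for 71.8% of all genes tested. SLC16A1 differed by -0.72 (SE 0.10, limma adjusted p = 0.000308) and by -0.45 after GC correction (limma adjusted p = 0.000568), and passed in all 17 alternatives. SLC16A3 differed by 0.95 (SE 0.10, limma adjusted p = 0.000101) and by 0.37 after GC correction (limma adjusted p = 0.00248), and passed in 16 of 17, missing with the median over transcripts (0.21, limma adjusted p = 0.0565).

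The share of SLC16A3 in the summed transporter FPKM was 64.7% ± 3.8 (SD, n = 3) in the parental group and 85.7% ± 1.87 (SD, n = 3) in the labelled knockout group, by an exact permutation p of 0.1. The transporters summed to 77.6 ± 1.43 FPKM (SD, n = 3) and 114 ± 10.2 FPKM (SD, n = 3), without overlap. This share and these sums are of FPKM as deposited, with no GC correction. SLC16A3 has 62.7% GC and SLC16A1 43.5%, and the corrected changes above were smaller for both.

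BSG was at 139, 148 and 169 FPKM in parental libraries and at 271, 236 and 278 FPKM in those labelled knockout, without overlap. The log2 difference of 0.78 (SE 0.11, limma adjusted p = 0.000288) came to 0.10 after GC correction and no longer passed (limma adjusted p = 0.232). At 61.6% GC, BSG was among the members richest in GC.

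LDHA was at 419, 385 and 391 FPKM in parental libraries and at 315, 274 and 339 FPKM in those labelled knockout, each below the parental range. The log2 difference was -0.37 (SE 0.10, limma adjusted p = 0.0104), and -0.21 after GC correction, which did not pass (limma adjusted p = 0.0874). LDHB stood at 571, 639 and 619.8 FPKM in the libraries labelled knockout, overlapping the parental libraries (log2 difference -0.05, SE 0.09, limma adjusted p = 0.661, and -0.12 after GC correction with limma adjusted p = 0.126). LDHB passed as lower with libraries scaled to the same total (-0.2, limma adjusted p = 0.0473) and with quantile normalization (-0.3, limma adjusted p = 0.0138). With GC content and length as the median over transcripts it passed as higher (0.28, limma adjusted p = 0.02). The direction of LDHB here thus depends on the processing. Its share of the pair, 61.3% in the parental group, was 66.4% ± 3.15 (SD, n = 3) in the labelled knockout group, without overlap (exact permutation p = 0.1).

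PDK2 had the largest change of the members in MHCC97H. It was at 1.82, 2.36 and 2.12 FPKM in parental libraries and at 5.39, 4.96 and 6.42 FPKM in those labelled knockout. Every library labelled knockout was above the parental range. The log2 difference was 1.09 (SE 0.12, limma adjusted p = 0.000124), and 0.53 after GC correction (limma adjusted p = 0.00286), and it passed in all 17 alternatives.

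PDK1 fell from 4.10, 3.95 and 3.45 FPKM to 2.48, 2.16 and 2.17 FPKM, without overlap (log2 difference -0.56, SE 0.11, limma adjusted p = 0.0019). After GC correction its difference was 0.13 (limma adjusted p = 0.345). PDK4 went from 3.12, 3.00 and 2.68 FPKM to 2.30, 2.31 and 1.97 FPKM, also without overlap (log2 difference -0.30, SE 0.11, limma adjusted p = 0.0355). After GC correction its difference was 0.21 (limma adjusted p = 0.0805). With GC content and length as the median over transcripts it was 0.32 and passed as higher (limma adjusted p = 0.0297), so that the direction of PDK4 in MHCC97H depends on this correction.

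The PDK4 call was also lost on leaving out parental replicate 1 or 2 or labelled knockout replicate 1 or 3, with limma adjusted p between 0.0522 and 0.114. PDK3 was at 1.87, 1.90 and 1.67 FPKM and at 1.72, 1.85 and 1.47 FPKM, and its difference of -0.07 did not pass (SE 0.11, limma adjusted p = 0.597), nor did 0.21 after GC correction (limma adjusted p = 0.0623).

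The kinase mRNA of MHCC97H, as deposited, moved towards PDK2. These shares were not GC corrected: PDK2 has 59.8% GC and the other kinases 39.4% to 43.5%, and the corrected changes above were 0.53 for PDK2 and 0.13, 0.21 and 0.21 for PDK1, PDK3 and PDK4. PDK1 had the largest share in the parental group, 35.9% ± 1.51 (SD, n = 3). PDK2 had it in the labelled knockout group, 47.6% ± 5.05 (SD, n = 3) against 19.7% ± 2.63 (SD, n = 3) before. PDK1 then made up 19.3%, PDK4 went from 27.5% to 18.7%, and PDK3 from 17.0% to 14.4%. All 4 shares were apart between the groups (exact permutation p = 0.1 each), and the summed kinase mRNA was 10.7 ± 0.672 FPKM (SD, n = 3) and 11.7 ± 0.396 FPKM (SD, n = 3).

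**Figure D1:**
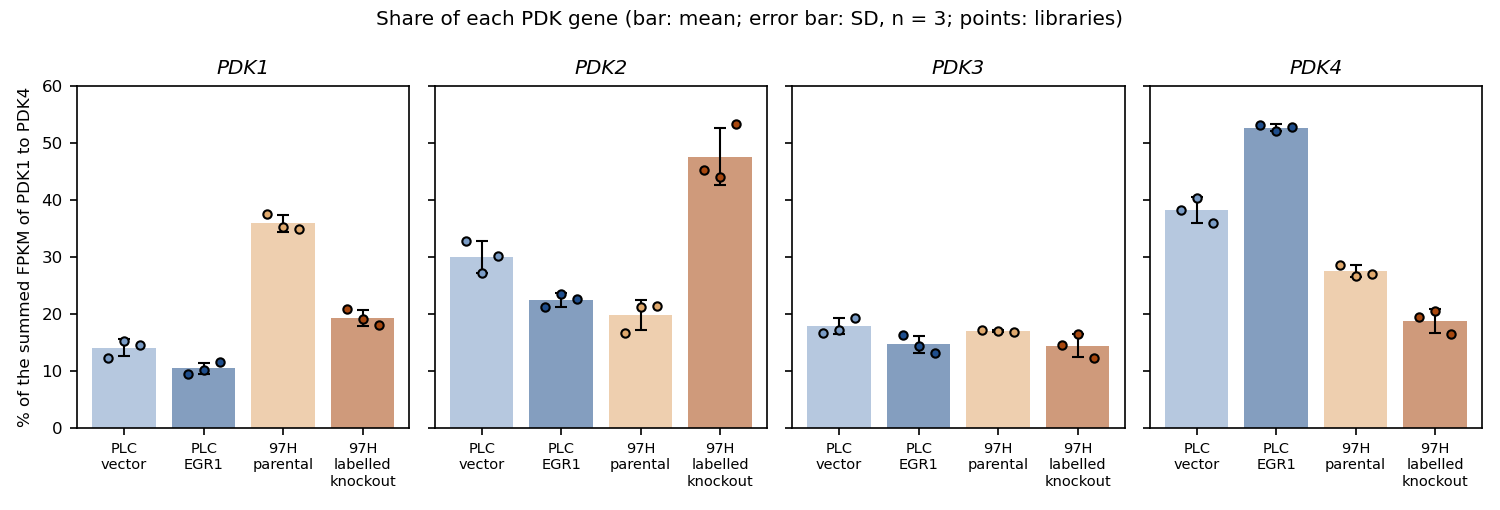
Share of each PDK gene in the summed FPKM of PDK1 to PDK4 (y axis, %) in the 4 groups (x axis), with bars for the mean, error bars for the SD of 3 libraries and points for the libraries. PDK4 is the largest share in both PLC/PRF5 groups, PDK1 in parental MHCC97H and PDK2 in the libraries labelled knockout.

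PDHA1 was at 9.66, 9.30 and 10.5 FPKM in parental libraries and at 12.9, 12.9 and 13.0 FPKM in those labelled knockout, without overlap. The log2 difference was 0.37 (SE 0.09, limma adjusted p = 0.00573), and 0.42 after GC correction (limma adjusted p = 0.00167). It passed in 16 of 17 alternatives, missing with libraries scaled to the same total (0.23, limma adjusted p = 0.055). The ratio of PDHA1 to PDHB overlapped between the groups, at a log2 of -0.88 ± 0.11 (SD, n = 3) and -0.85 ± 0.11 (SD, n = 3), with an exact permutation p of 0.7. The log2 ratio of PDHA1 to DLAT did not overlap, at -1.08 ± 0.18 (SD, n = 3) and -0.38 ± 0.13 (SD, n = 3), with an exact permutation p of 0.1. The log2 ratio of LDHA to PDHA1 was 5.34 ± 0.11 (SD, n = 3) and 4.57 ± 0.16 (SD, n = 3), without overlap (exact permutation p = 0.1).

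**Figure D2:**
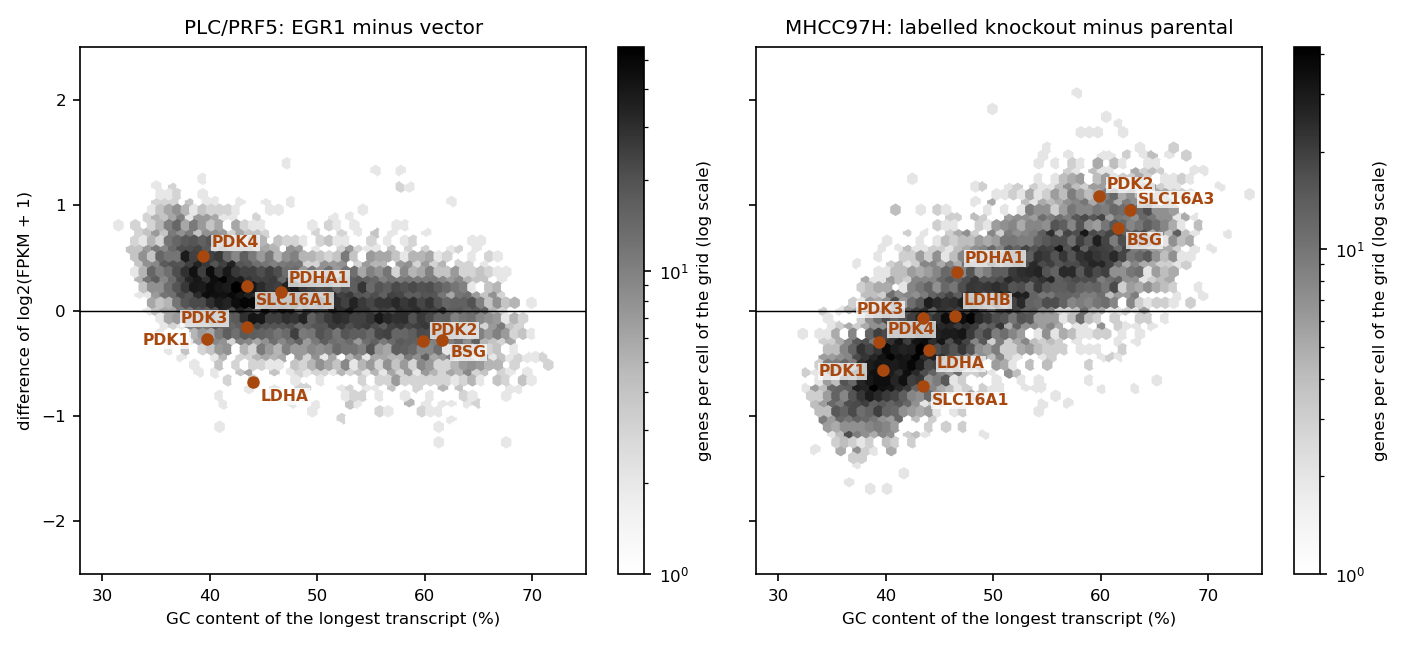
GC content of each gene's longest transcript (x axis, %) against its difference of log2(FPKM + 1) (y axis) in PLC/PRF5 and MHCC97H, with all genes tested as shaded cells of a grid and the members as labelled points. PDK2, SLC16A3 and BSG, at 59.8% to 62.7% GC, lie with the rising right side of the MHCC97H cloud, and LDHA is at -0.68 in PLC/PRF5.

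The change of each member was then set against itself in the other line, as labelled knockout minus parental less EGR1 minus vector. The perturbations differ, so this compares a pair of changes and not 1 treatment. LDHB and SLC16A3, under 1 FPKM in every PLC/PRF5 library, entered this test only through their level in MHCC97H and are left out of the count. The difference passed for 4 of the other 8 members, against 65.5% of the genes whose mean FPKM reached 1 in both lines. Of all 12090 genes tested 63.8% passed, 30.4% higher and 33.4% lower. It was higher in MHCC97H for PDK2 (1.38, SE 0.14, limma adjusted p = 8.96e-06) and BSG (1.06, SE 0.13, limma adjusted p = 3.94e-05). It was lower for SLC16A1 (-0.95, SE 0.11, limma adjusted p = 2.86e-05) and PDK4 (-0.82, SE 0.13, limma adjusted p = 0.000219).

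LDHA fell in both lines as deposited, and the falls were not shown to differ (0.31, SE 0.13, limma adjusted p = 0.0543), although they did after GC correction (0.55, limma adjusted p = 0.00347). The PDK4 difference, in contrast, was -0.09 after GC correction (limma adjusted p = 0.508). With that correction 7 of the 8 passed, 6 higher and 1 lower, against 50.5% of all 11422 genes tested, 26.1% higher and 24.4% lower. Unlike the 65.5% above, this share was not limited to genes whose mean FPKM reached 1 in both lines.

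The other genes of pyruvate and lactate handling were counted from 7 lists of 27 genes. In PLC/PRF5, 16 were tested and 6 passed, 5 higher and 1 lower, against 29.6% of all genes (19.2% higher and 10.4% lower), at a median change of 0.27 against 0.09. After GC correction 4 were called higher and 3 lower, against 33.7% of all genes. DLD, the E3 subunit that pyruvate dehydrogenase shares with other dehydrogenase complexes, rose from 25.1, 36.8 and 30.7 FPKM to 44.5, 44.8 and 44.6 FPKM (log2 difference 0.53, SE 0.13, limma adjusted p = 0.0145, and 0.28 after GC correction). LIAS, which makes the lipoyl group of the E2 subunit, differed by 0.51 (SE 0.12, limma adjusted p = 0.0142), a call lost after GC correction (0.28, limma adjusted p = 0.146). GPT2, which converts pyruvate to alanine in the mitochondrion, fell by 0.59 on the log2 scale, from 31.6, 29.2 and 30.7 FPKM to 18.2, 20.2 and 21.3 FPKM (SE 0.09, limma adjusted p = 0.00225).

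In MHCC97H, 15 of the 27 genes were tested and 7 passed, 3 higher and 4 lower, against 66.3% of all genes, at a median of -0.20 against 0.02. After GC correction 2 were called higher and 3 lower, against 47.5% of all genes. MPC2, a subunit of the carrier that brings pyruvate into the mitochondrion, rose from 11.8, 10.4 and 11.2 FPKM to 23.7, 26.1 and 25.9 FPKM in the libraries labelled knockout (log2 difference 1.12, SE 0.09, limma adjusted p = 3.45e-05, and 1.37 after GC correction). Its partner MPC1 overlapped between the groups (0.02, SE 0.15, limma adjusted p = 0.916). DLD and LIAS were lower by -0.68 (SE 0.15, limma adjusted p = 0.00394) and -0.51 (SE 0.12, limma adjusted p = 0.00516), and neither passed after GC correction.

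None of the 4 other lactate dehydrogenase genes had a mean FPKM of 1 over the libraries of either comparison, LDHD being the highest at 1.14 FPKM in vector libraries. Of the 3 genes of the phosphatase that reverses the kinases, PDPR passed in PLC/PRF5 (0.44, SE 0.14, limma adjusted p = 0.0475) and none passed in MHCC97H. PDPR and MPC1 were singled out after their values were seen.

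Of 9 transcription factors known to act on members of this pathway, 2 passed in PLC/PRF5, where 29.6% of all genes did, and 4 of 8 tested passed in MHCC97H, where 66.3% did. After GC correction 1 passed in PLC/PRF5 as higher, and in MHCC97H 1 passed as higher and 2 as lower. HIF1A, the hypoxia-inducible subunit, rose in PLC/PRF5 (0.50, SE 0.10, limma adjusted p = 0.00796), a call lost after GC correction (0.13, limma adjusted p = 0.177). In MHCC97H it was at 115, 99.3 and 81.9 FPKM in parental libraries and at 38.4, 39.3 and 27.8 FPKM in those labelled knockout, a log2 difference of -1.46 (SE 0.16, limma adjusted p = 9.1e-05) and of -0.82 after GC correction (limma adjusted p = 0.00016). EPAS1, its paralogue, moved the other way, from 15.5, 15.6 and 16.3 FPKM to 39.5, 34.1 and 35.2 FPKM (1.15, SE 0.09, limma adjusted p = 2.81e-05, and 0.93 after GC correction). ESRRA, a nuclear receptor of mitochondrial genes, differed by 0.65 in MHCC97H (SE 0.10, limma adjusted p = 0.000567) and by -0.04 after GC correction. In PLC/PRF5 it differed by 0.33 (SE 0.11, limma adjusted p = 0.0466) and by 0.45 after GC correction (limma adjusted p = 0.00358).

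**Figure D3:**
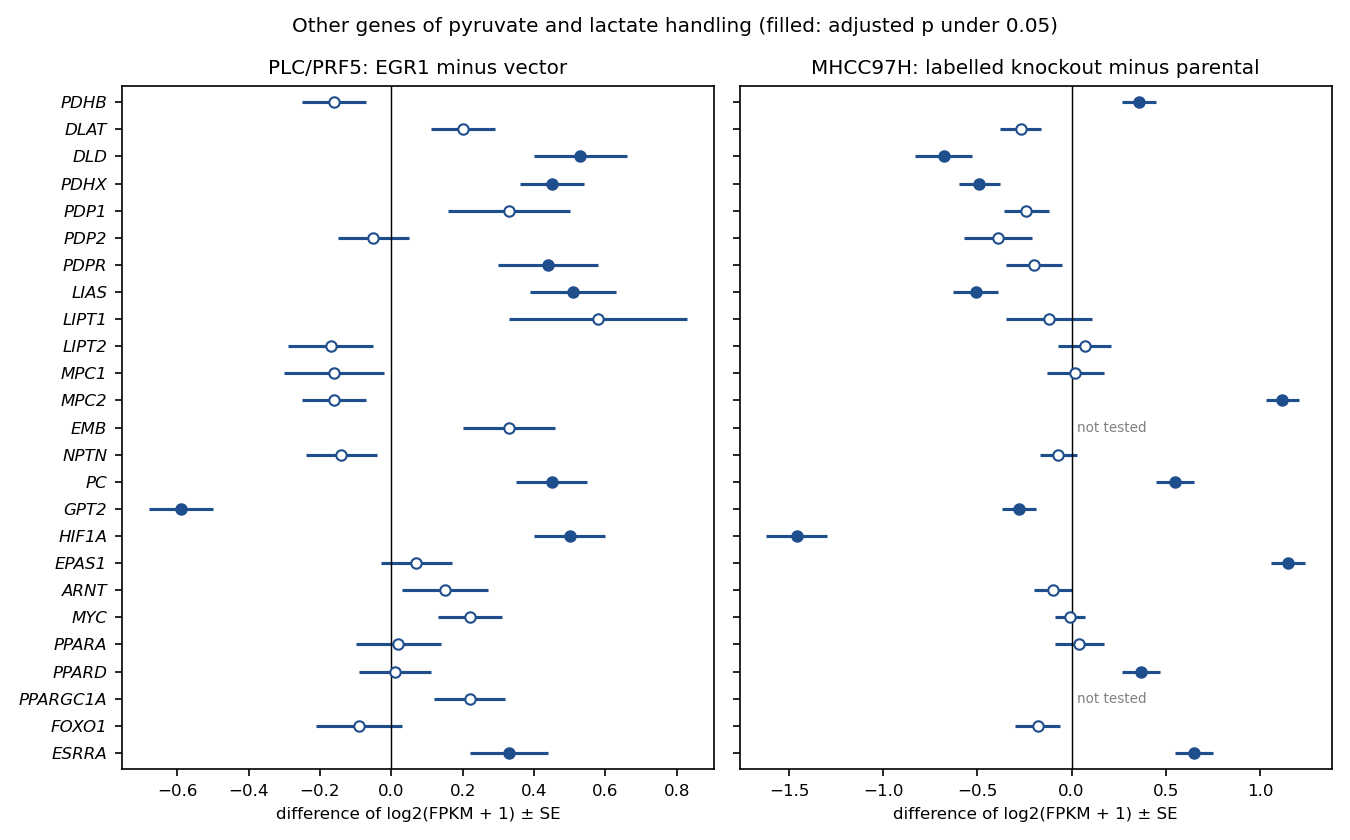
Difference of log2(FPKM + 1) (x axis, own range per cell line, bars of 1 SE) for the other genes of pyruvate and lactate handling and the 9 transcription factors (y axis), filled where the limma adjusted p was under 0.05. In MHCC97H, HIF1A lies lowest at -1.46, and EPAS1 (1.15) and MPC2 (1.12) lie highest.

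The levels of the members across the 4 groups had different orders. LDHA was highest with PLC/PRF5 vector (619 FPKM), while MHCC97H parental (398) and PLC/PRF5 EGR1 (387) overlapped and the libraries labelled knockout were lowest (309). PDK2 and BSG descended in the same order, vector, EGR1, labelled knockout and parental, with no overlap between neighbours. For PDK1, the vector (4.37), parental (3.83) and EGR1 (3.43) groups overlapped with their neighbours, and only the libraries labelled knockout (2.27) lay apart. PDK3 overlapped within each line and not between the lines.

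The genes whose levels were most like a member's were found by the root mean square difference of centred log2(FPKM + 1) over the 12 libraries, among 11448 genes. The nearest to LDHB was PTGR1 (0.22), to SLC16A3 TNFAIP2 (0.13), to BSG POMGNT1 (0.07), to PDK2 MANEAL (0.08), to PDK3 ELOVL7 (0.06), to PDK4 PIK3AP1 (0.13) and to PDHA1 FSTL3 (0.10). These likenesses describe 12 libraries of 2 cell lines, and the members compared were those whose SD over the libraries was at least 0.5.

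The annotated spans of 7 members overlap a gene on the opposite strand, among them SLC16A1 with SLC16A1-AS1, SLC16A3 with CSNK1D, PDK2 with SAMD14 and PDHA1 with MAP3K15. Whether the counting used strand was not given in the sources used here, so reads of such partners cannot be told apart from those of the members.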

How the data were processed

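Per the labels, total RNA of 12 cell line libraries was sequenced, and the authors deposited 1 table of FPKM per gene. The submitters' processing notes name StringTie and hg38, and the aligner, versions and depth were not given in the sources used here. Groups and columns were taken from the labels. The members and gene lists were chosen with earlier results of these data known.

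Each comparison was fitted with limma 3.58.1 (R 4.3.3, intensity trend) on log2(FPKM + 1), so that a change of a low gene is understated, keeping a gene where its mean FPKM reached 1. The tests were 2-sided, with Benjamini-Hochberg adjustment over every gene kept and a threshold of 0.05. The study's methods name no test for this table. Ratios and shares within a library were compared by 2-sided exact permutation tests of 3 against 3 libraries, and p-values of these ratios were not adjusted. All ratios, shares and sums used FPKM as deposited, with no GC correction. For the GC correction, a spline of 5 degrees of freedom on the GC content and length of the longest GENCODE 29 transcript was subtracted, for 94.2% to 94.7% of the genes tested. The code was tested on simulated data.

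Named were the 10 members, EGR1 and, of the other pathway genes, up to 3 rises and 3 falls per cell line of largest size that passed without overlap. Alternatives were a pseudocount of 0.1, no filter on low values, other scalings, no trend, 1 fit of all 12 libraries, a replicate block, the GC correction and leaving out each library. With 1 library left out, the spread was pooled over the others. Same-numbered libraries were checked for pairing by the correlation of their deviations from the group means, which was between -0.393 and 0.467, and were not treated as pairs.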

Additional observations from a re-analysis of the deposited data

Results flagged for a closer look

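The change in MHCC97H (labelled knockout minus parental) and the change in PLC/PRF5 (EGR1 minus vector) differed by a limma test of the difference itself for 4 members, given here on the log2 scale as the former minus the latter. PDK2 had a difference of 1.38 (limma adjusted p = 8.96e-06) and of 0.81 after GC correction (limma adjusted p = 0.000105). PDK2 rose in MHCC97H and fell in PLC/PRF5, where the fall passed in 10 of 17 alternatives. BSG had a difference of 1.06 (limma adjusted p = 3.94e-05), which was 0.33 after GC correction (limma adjusted p = 0.00574). SLC16A1 had a difference of -0.95 (limma adjusted p = 2.86e-05) and of -0.57 after GC correction (limma adjusted p = 6.39e-05). PDK4 had a difference of -0.82 (limma adjusted p = 0.000219), which was -0.09 after GC correction (limma adjusted p = 0.508). SLC16A3 and LDHB, under 1 FPKM in every PLC/PRF5 library, passed the filter on low values only through MHCC97H and are left out. Among all genes tested 63.8% passed this test. EGR1 mRNA was higher in the libraries labelled knockout, so these differences are between labelled groups.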

How the results depend on the processing

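Over the members, ratios, shares and counts, 1014 values under alternatives kept their direction and side of the threshold, 38 gained and 47 lost significance, 12 moved and 19 turned their direction. The cause of these shifts was not tested.

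In PLC/PRF5 the count of members that passed was 3, and 5 with any FPKM above 0, with median scaling, with all 12 libraries in one fit, and with either GC correction. It was 2 to 4 when a library was left out. The 3457 genes called came to between 1919 and 4007 with a library left out, at 2246 without vector replicate 3, 1919 without EGR1 replicate 2 and 2208 without EGR1 replicate 3. The change of the log2 ratio of LDHA to LDHB, -2.04, was -1.6 with 0.1 FPKM added.

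In MHCC97H the 8 members called came to 4 with GC correction, 5 with GC correction and replicate block, and 7 to 8 with a library left out, and the 7671 genes called came to 5211 with GC correction and 4961 with its median over transcripts. With GC correction, with or without the block, PDK1 turned to 0.13, PDK3 to 0.21, PDK4 to 0.21 and ESRRA to -0.04. With the median over transcripts, an alternative chosen after seeing the data, LDHB turned to 0.28, PDK3 to 0.30, PDK4 to 0.32 and ESRRA to -0.03. Quantile normalization turned PDK3 to 0.06.

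For the difference of changes, LDHA turned to -0.06 with quantile normalization, PDK1 to 0.78 with GC correction, with or without the block, and, with the median over transcripts, LDHB to 0.19, PDK1 to 0.27 and PDK4 to 0.13.

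The replicate block, for numbers that do not pair the libraries, took the members called in PLC/PRF5 to 2, with PDK2 at a limma adjusted p of 0.0722, and those in MHCC97H to 8. Without depth, no counting error can be given, and levels under 1 FPKM such as LDHB and SLC16A3 in PLC/PRF5 are the least certain.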
